A study of Mus musculus with 30 samples.

Results

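Cells with a high or a low signal of a red Sox2 reporter were sorted from the antrum, the distal part of the mouse stomach, and their transcriptomes were compared. Sox2 is a transcription factor of the foregut and of many stem and progenitor cells. The Sox2-high group has 3 libraries and the Sox2-low group has 3, which are 6 of the 30 libraries of the series, and all 6 were chosen by their labelled gate and not by a measured value. A further 3 libraries of reporter-negative antral cells, from the same 3 sort days, serve as background. All 9 came from primary antrum of Sox2-Tomato mice whose genotype is labelled WT, so the reporter is shared by every group compared. The age and sex of the mice, the number of animals pooled for a sort, and whether EpCAM or another surface marker was part of the antral gate are given in none of the sources used here.

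Enteroendocrine cells are single hormone-secreting cells scattered in the gastric glands. They store peptides and amines in dense granules that granins help to build, cut the peptides out of precursors with prohormone convertases, and release them by calcium-triggered exocytosis, much as neurons do. In the antrum the classical types are the gastrin-secreting G cell, the somatostatin-secreting D cell and the enterochromaffin cell, which makes serotonin from tryptophan through tryptophan hydroxylase 1 (Tph1).

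Genes of serotonin-making cells were among those with the largest rises. The serotonin enzymes Tph1 and Ddc, both vesicular monoamine transporters, the granins Chga and Chgb, the opioid precursor Penk, the transcription factors Lmx1a, Nkx6-1 and Fev, and 26 of 42 tested exocytosis genes rose in Sox2-high against Sox2-low cells. Of all genes tested 6.14% rose, and 9 of the 42 did without Sox2-high library 2. The hormones Gip and Sst, the D cell factor Hhex, many tuft cell genes and some pit cell and mitotic genes fell. Of 265 falls over all genes tested, 15 held whichever library was left out, and Sst was not among them. Gastrin (Gast) and ghrelin (Ghrl) did not pass the test in either direction.

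The start site regions of 3 risen granule genes and 1 fallen hormone gene are shown because 3 of them, all but Chga, carry the same short element. The cAMP response element TGACGTCA, which reads the same on both strands, is the textbook binding site of CREB family factors. Windows of 300 bases (250 before to 50 after the start site) are RefSeq sequences of build GRCm38.p6, given in the sense of the gene, and capitals mark the element, or in Chga only the letters TGACG, which are common and are shown for comparison, since the full element was not found there. They lie at chr2:132781392-132781691 on the plus strand for Chgb, at chr12:102554691-102554990 on the plus strand for Chga, at chr19:59260628-59260927 on the plus strand for Slc18a2 and at chr16:23890795-23891094 on the minus strand for Sst.
Chgb: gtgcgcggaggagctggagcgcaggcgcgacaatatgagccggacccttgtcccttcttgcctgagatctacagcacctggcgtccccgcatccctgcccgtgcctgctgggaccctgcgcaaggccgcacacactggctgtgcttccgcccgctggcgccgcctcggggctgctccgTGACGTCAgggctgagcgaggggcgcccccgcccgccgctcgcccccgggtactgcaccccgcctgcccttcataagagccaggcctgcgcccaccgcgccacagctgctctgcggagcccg
Chga: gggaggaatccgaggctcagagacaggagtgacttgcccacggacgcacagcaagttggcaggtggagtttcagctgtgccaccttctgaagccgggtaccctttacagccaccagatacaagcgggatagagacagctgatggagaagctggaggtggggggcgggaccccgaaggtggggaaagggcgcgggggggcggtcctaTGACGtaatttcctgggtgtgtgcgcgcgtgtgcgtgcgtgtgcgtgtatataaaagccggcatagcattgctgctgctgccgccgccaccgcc
Slc18a2: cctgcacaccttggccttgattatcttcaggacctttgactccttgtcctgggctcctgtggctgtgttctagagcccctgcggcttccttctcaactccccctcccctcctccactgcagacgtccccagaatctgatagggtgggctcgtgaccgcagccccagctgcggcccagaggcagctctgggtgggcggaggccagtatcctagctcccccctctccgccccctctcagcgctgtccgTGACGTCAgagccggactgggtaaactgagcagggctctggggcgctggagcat
Sst: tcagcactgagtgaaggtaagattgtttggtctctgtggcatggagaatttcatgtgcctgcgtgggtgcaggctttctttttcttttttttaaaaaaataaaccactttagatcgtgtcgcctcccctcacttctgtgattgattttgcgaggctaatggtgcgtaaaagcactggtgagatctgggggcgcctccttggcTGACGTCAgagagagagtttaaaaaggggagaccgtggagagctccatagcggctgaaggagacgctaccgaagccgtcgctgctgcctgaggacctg
The capitals begin 72 bases before the start site in Chgb, 44 in Chga, 4 in Slc18a2 and 48 in Sst. Of all 32851 windows, 1.79% hold the full element and 20.8% hold TGACG on either strand, a count that includes every full element. Among genes tested that have a window, the full element was found in 3.53% of 10741, against 3.45% of the 666 higher and 2.62% of the 191 lower in Sox2-high cells, so it was about as frequent among the genes that changed as among the rest. Only exact matches were searched, and the letters TGACGtaa in Chga differ from the full element in 1 base. Whether they act as such an element was not tested. The match is a description of these letters and not of binding.

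The 6 libraries held 23810482 to 34437305 reads recovered from the deposited values, with 18783 to 20897 genes detected. The Sox2-high sorts were small, with 3268, 2090 and 1630 cells on sort days 1, 2 and 3, against 80000, 66900 and 61910 Sox2-low cells. Sox2-high library 1 stood apart: across genes its correlation was 0.855 and 0.865 with the other Sox2-high libraries, which correlated with each other at 0.960, and 0.857 with Sox2-low library 1 of its own day. The part that library quality or sorted cell number plays in any result was not tested. Sox2 transcripts were at 1355, 3628 and 2849 normalized counts in Sox2-high, 374, 662 and 709 in Sox2-low and 36.6, 442 and 304 in Sox2-negative libraries of sort days 1, 2 and 3. On each sort day the gates and the transcript had the same order. High and low did not overlap (log2 difference 2.10 with SE 0.83, BH-adjusted p = 0.169 in limma, and 0.0124 in the fit with a sort-day block), while the ranges of low and negative did. Since the Sox2 reporter set the gates, this difference describes the sort and is not a finding. Epcam was at 32546, 24566 and 24681 in Sox2-high and 28516, 20359.7 and 19794 in Sox2-low libraries, and the ranges of the groups overlapped.

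Values below are normalized counts, read counts divided by a factor per library, given in the order of sort days 1, 2 and 3. Fold changes are Sox2-high minus Sox2-low on the log2(normalized count + 1) scale, with the standard error (SE) and the p-value of limma adjusted by Benjamini-Hochberg (BH) over all genes tested, and "rose" and "fell" are used for an adjusted p under 0.05. This main test has no term for the sort day, so it is not paired. Of 15064 genes tested, 1190 passed (7.9%), 925 higher (6.14%) and 265 lower (1.76%) in Sox2-high cells. A fit that treats the sort day as a block called 4581 (30.4%), with 2608 higher (17.3%) and 1973 lower (13.1%), and all 1190 were among them. The groups did not overlap for 30.6% of all genes tested (18.1% higher and 12.5% lower in Sox2-high cells), the background for each such statement below. The median log2 fold change over all genes tested was 0.00 to 2 decimals. Only 268 calls, 253 higher and 15 lower, held whichever of the 6 libraries was left out. The count was 1503 (9.98%) without Sox2-high library 1, 310 and 497 without Sox2-high library 2 and 3, and 430, 377 and 416 without Sox2-low library 1, 2 and 3. Rises numbered 1077, 264 and 388 without Sox2-high library 1, 2 and 3, and 392, 350 and 389 without Sox2-low library 1, 2 and 3. Falls numbered 426, 46 and 109, and 38, 27 and 27, in the same order. These are the background for each leave-out count below. In bulk sorts, fewer cells of a type and less RNA per cell cannot be told apart.

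**Figure D1:**
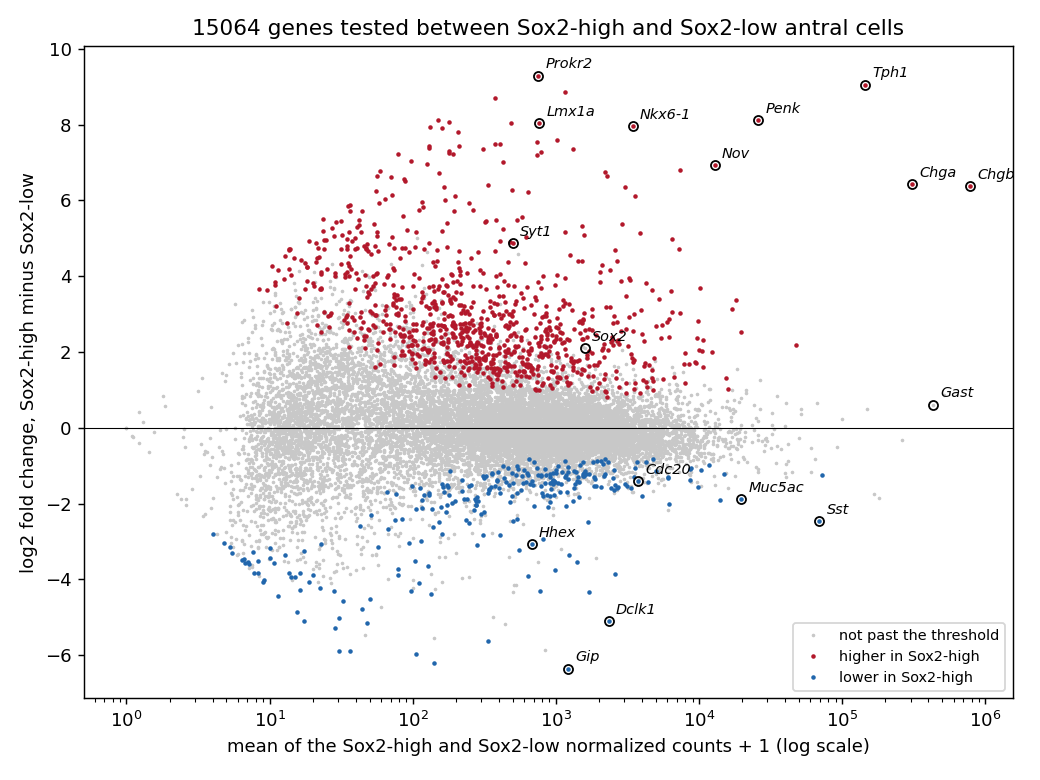
Log2 fold change (Sox2-high minus Sox2-low) of the 15064 genes tested against the mean of their Sox2-high and Sox2-low normalized counts plus 1 on a log axis. Red and blue points passed as higher (925) or lower (265), grey points did not, and circled genes are named; the most abundant risen genes are Chgb, Chga and Tph1.

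The enzymes that make serotonin and the transporters that store it rose, while other genes of the same list did not pass. Tph1, its rate-limiting enzyme, was at 163893, 396413 and 304056 in Sox2-high, 116, 1401 and 799 in Sox2-low and 105, 1079.7 and 589 in Sox2-negative libraries (log2 difference 9.06 with SE 1.02, BH-adjusted p = 0.00219 in limma). Every Sox2-high library lay above every other one, and sort day 1 gave the lowest value in each of the 3 groups. Ddc, the decarboxylase that forms serotonin, was at 20231, 20574 and 15550.4 and 1369, 1504 and 1477 (log2 difference 3.68 with SE 0.37, BH-adjusted p = 0.0014 in limma). Gch1, which starts the synthesis of the cofactor tetrahydrobiopterin that Tph1 needs, was at 15826, 17632 and 17763 and 2732, 2257 and 2307 (log2 difference 2.81 with SE 0.28, BH-adjusted p = 0.00113 in limma). Neither gene's groups overlapped. The vesicular monoamine transporters load serotonin into granules, and both of them rose. Slc18a1 was at 6044, 8496 and 6437 against 60.8, 113 and 137 (log2 difference 6.12 with SE 0.38, BH-adjusted p = 0.000169 in limma), and Slc18a2 at 2456, 9027 and 6532 against 13.5, 223 and 78.1 (log2 difference 6.37 with SE 0.90, BH-adjusted p = 0.00506 in limma). These 5 genes kept their calls whichever library was left out, with the highest adjusted p at 0.0318 for Slc18a2 without Sox2-high library 2 (limma BH).

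Of 16 tested genes of serotonin synthesis, transport and breakdown, 7 rose and none fell (10 and 1 with the block), with a median log2 difference of 1.09. The other 2 that rose were Qdpr, which recycles the cofactor (1.65, SE 0.36, BH-adjusted p from limma = 0.0269), and Slc3a2, the heavy chain of an amino acid transporter (1.19, SE 0.24, adjusted p = 0.0205). Qdpr lost its call without Sox2-high library 2 or 3 or Sox2-low library 2 or 3, and Slc3a2 without any 1 library other than Sox2-high library 1 (highest adjusted p 0.107 and 0.0921). The breakdown enzyme Maob was at 1322, 3744 and 2853 and 1278, 1529 and 2199, with overlapping groups. The brain isoform Tph2 was too low to be tested, at 0, 9.55 and 2.47 and 1.93, 0 and 0.596. Beside serotonin, Hdc, the histamine-forming enzyme of enterochromaffin-like cells, was at 636, 6056 and 4852 and 147, 412 and 57.8 (log2 difference 4.12 with SE 1.03, BH-adjusted p = 0.0428 in limma), and Gad2, which makes GABA, rose by 3.33 (SE 0.72, adjusted p = 0.0267), while the catecholamine enzyme Th fell by 2.04 (SE 0.40, adjusted p = 0.0187). These were 3 of 6 tested genes of other amines. Hdc and Gad2 lost their calls without any 1 library other than Sox2-high library 1, and Th without Sox2-high library 2 or any Sox2-low library (highest adjusted p 0.149, 0.0925 and 0.0787).

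Genes of granule proteins also rose, 11 of 16 tested. The granins Chgb and Chga, acidic proteins that pack the granule core, took 6.80 ± 1.29% and 2.67 ± 0.649% of the reads of Sox2-high libraries (SD, n = 3), against 0.0950 ± 0.0341% and 0.0365 ± 0.0164% in Sox2-low libraries. In normalized counts, Chgb was at 1472248, 1801206 and 1379854 in Sox2-high, 12906, 22405 and 21746 in Sox2-low and 59923, 31541 and 59221 in Sox2-negative libraries (log2 difference 6.38 with SE 0.35, BH-adjusted p = 0.000112 in limma), and Chga at 546026, 742473 and 537317, 4676, 10394 and 6889.6 and 50529.7, 20737 and 19954 (log2 difference 6.44 with SE 0.43, BH-adjusted p = 0.000169 in limma). Vgf, a granin-like precursor, was at 1843, 4981 and 2331 against 51.1, 119 and 85.9 (log2 difference 5.09 with SE 0.48, BH-adjusted p = 0.000854 in limma). For all 3 the lowest Sox2-high library was above the highest library of the other groups, and the calls held in every leave-out.

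Among these 16 granins and processing genes none fell (11 rose and none fell with the block too), with a median of 2.58. Scg3, which ties granins to the granule membrane, was at 9719, 12623 and 9148 and 1314, 1465 and 1786 (log2 difference 2.78 with SE 0.41, BH-adjusted p = 0.0057 in limma) and also held in every leave-out. The convertase Pcsk1 was at 10718, 43509 and 38296 and 1439, 3966 and 4589 (log2 difference 3.14 with SE 0.66, BH-adjusted p = 0.0245 in limma), the carboxypeptidase Cpe at 50337, 103054 and 80399 and 12362, 15889 and 21951 (log2 difference 2.20 with SE 0.49, BH-adjusted p = 0.0279 in limma), and the amidating enzyme Pam at 11397, 24296 and 14991 and 2854, 4479.6 and 4732 (log2 difference 2.03 with SE 0.52, BH-adjusted p = 0.0471 in limma). These 3 lost their calls without any 1 library other than Sox2-high library 1 (highest adjusted p 0.0955, 0.109 and 0.165), and the list's count was 4 without Sox2-high library 2 or any Sox2-low library and 6 without Sox2-high library 3. They were not specific to the Sox2-high gate: in Sox2-negative libraries Pcsk1 was at 8779, 6881 and 20408, Cpe at 83408, 28288 and 90354 and Pam at 23133, 7871 and 33064. The second convertase, Pcsk2, did not pass, at 1843, 9637 and 10687 in Sox2-high and 5018, 9534 and 10512 in Sox2-low libraries, and its values in Sox2-negative libraries were higher, at 35188, 15311 and 43412.

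**Figure D2:**
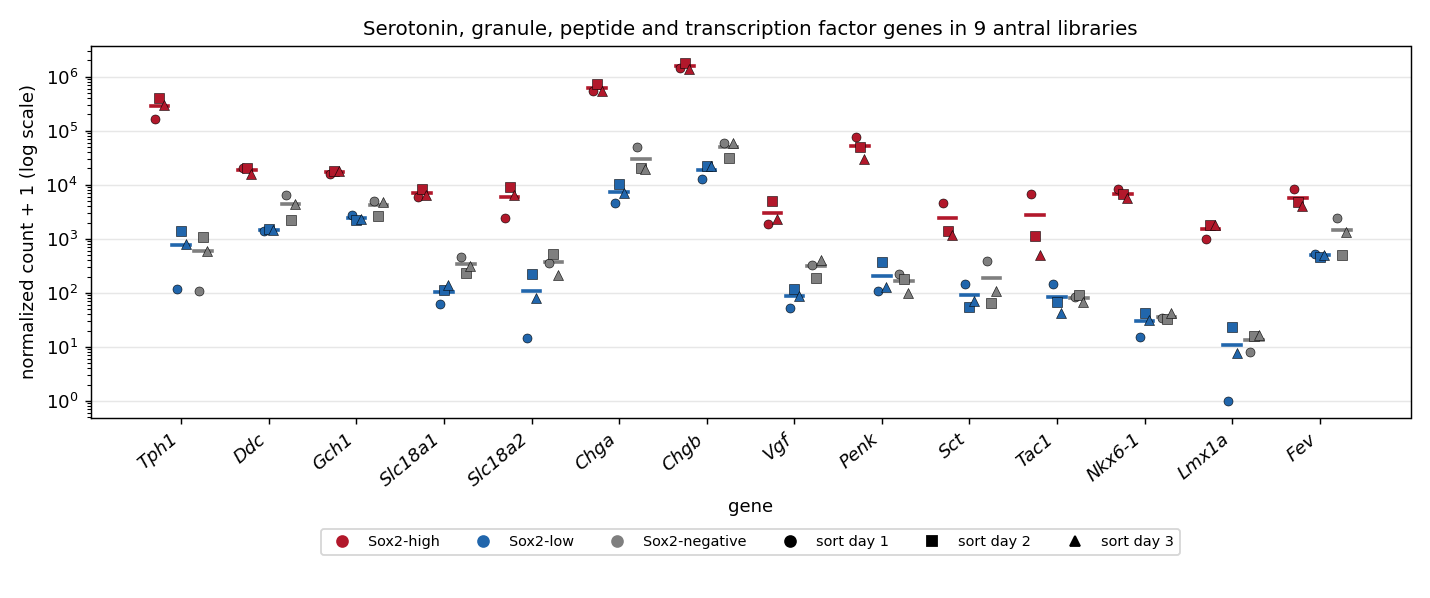
Normalized count plus 1 (log axis) of 14 genes in each Sox2-high, Sox2-low and Sox2-negative library; symbols mark the sort day and bars the mean of 3 libraries. For each gene the 3 Sox2-high values lie above the 3 Sox2-low values, for example 163893 to 396413 against 115.7 to 1401 for Tph1.

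Peptide hormones went both ways. Penk, which encodes the enkephalin precursor, was at 74995, 49597 and 30195 in Sox2-high, 109, 366 and 128 in Sox2-low and 217, 181 and 98.3 in Sox2-negative libraries (log2 difference 8.12 with SE 0.53, BH-adjusted p = 0.000169 in limma). Secretin (Sct) was at 4687, 1393 and 1157 and 148, 53.9 and 68.6 (log2 difference 4.57 with SE 0.75, BH-adjusted p = 0.00954 in limma), and Tac1, the precursor of substance P, at 6669.9, 1108 and 502 and 142, 66.1 and 40.5 (log2 difference 4.40 with SE 0.84, BH-adjusted p = 0.0171 in limma). Penk and Sct held in every leave-out, while Tac1 lost its call without Sox2-high library 2 or Sox2-low library 2 or 3 (highest adjusted p 0.0673). For Sct and Tac1 the Sox2-high value of sort day 1 was several times those of the other days. Guca2b, the precursor of uroguanylin, rose by 4.02 (SE 0.82, adjusted p = 0.0215) and lost its call without Sox2-high library 2 or any Sox2-low library (highest adjusted p 0.0831, limma BH).

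The incretin Gip, the hormone of K cells, was at 39.4, 100.3 and 3.09 in Sox2-high, 4259.5, 1439.7 and 1489 in Sox2-low and 6492, 2394 and 2837 in Sox2-negative libraries (log2 difference -6.35 with SE 1.03, BH-adjusted p = 0.00908 in limma), and held in every leave-out. Somatostatin (Sst) was at 37091, 10081 and 19309 in Sox2-high and 188152, 90688 and 70864 in Sox2-low libraries (log2 difference -2.46 with SE 0.55, BH-adjusted p = 0.0286 in limma), and amylin (Iapp), which D cells of the stomach also make, fell by 2.92 (SE 0.66, adjusted p = 0.0302). Both lost their calls without any 1 library other than Sox2-high library 1 (highest adjusted p 0.102 and 0.1). Hhex, the transcription factor that D cells need, was at 96.3, 179 and 167 and 1254, 1279 and 1088 (log2 difference -3.07 with SE 0.35, BH-adjusted p = 0.00225 in limma) and held in every leave-out. The 3 values of Sst, Iapp and Hhex in Sox2-high libraries all lay under the 3 in Sox2-low libraries. Gastrin did not separate the groups, at 520816, 533135 and 473718 in Sox2-high and 526462, 215923 and 324292 in Sox2-low libraries, nor did ghrelin, at 11292, 2619.96 and 13442 and 19899.9, 8881 and 4802. Peptide YY (Pyy), at 3409, 1793 and 1435 and 15112, 7426 and 6967, passed as lower with the block but not without it (adjusted p = 0.113 without it and 0.00587 with it, limma BH). Of 22 tested hormone genes 4 rose and 3 fell, and 7 rose and 5 fell with the block, with a median of 0.04. Left out in turn, single libraries left 2 to 4 rises (2 without Sox2-high library 2 or Sox2-low library 2 or 3) and 1 to 3 falls (1 without Sox2-high library 3 or any Sox2-low library).

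Of the endocrine transcription factors some rose and 2 fell. Lmx1a, which acts in serotonin neurons and enterochromaffin cells, was at 988, 1785 and 1784 in Sox2-high, 0, 22.3 and 6.56 in Sox2-low and 6.92, 14.9 and 15.7 in Sox2-negative libraries (log2 difference 8.03 with SE 0.99, BH-adjusted p = 0.00307 in limma). Nkx6-1, a homeobox factor of pancreatic beta cells and of gut serotonin cells, was at 8281, 6681 and 5629 against 14.5, 41.1 and 29.8 (log2 difference 7.96 with SE 0.40, BH-adjusted p = 9.45e-05 in limma). Fev, a factor of serotonin neurons, was at 8356, 4754 and 3994 and 518, 455 and 495 (log2 difference 3.47 with SE 0.52, BH-adjusted p = 0.00627 in limma). All 3 genes separated the groups fully and held in every leave-out.

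Factors shared by most endocrine types rose by less. Neurod1 rose by 2.31 (SE 0.41, adjusted p = 0.0133), Insm1 by 2.69 (SE 0.48, adjusted p = 0.0129), Pax6 by 2.11 (SE 0.38, adjusted p = 0.0131) and Nkx2-2 by 2.23 (SE 0.41, adjusted p = 0.0145, limma BH). Each of these lost its call without Sox2-high library 2 or Sox2-low library 1, and Neurod1 and Nkx2-2 also without Sox2-low library 2 (highest adjusted p 0.0663). Against the Sox2-negative libraries, Neurod1, Pax6 and Nkx2-2 did not pass in Sox2-high cells (adjusted p = 0.44, 0.51 and 0.3), while Nkx6-1 was higher there by 7.55 log2 units (adjusted p = 0.000105, limma BH). Beside Hhex, Isl1, a LIM factor of several endocrine types, fell from 1563, 1409 and 1283 to 221, 419.7 and 385 (log2 difference -2.10 with SE 0.44, BH-adjusted p = 0.023 in limma) and lost its call without any 1 library other than Sox2-high library 1 (highest adjusted p 0.0803). Neurog3, the transient factor of endocrine progenitors, was at 156, 233 and 96.3 in Sox2-high and 528, 335 and 422 in Sox2-low libraries (BH-adjusted p = 0.111 in limma, 0.0488 with the block). In all, 15 of 36 tested endocrine factors rose and 2 fell (20 and 5 with the block), with a median of 1.45, and 5 rose without Sox2-high library 2, 7 and 8 without Sox2-low library 1 and 2, and 10 to 16 without any other 1 of the libraries. The falls were 1 without any library other than Sox2-high library 1, and 3 without that one.

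Most tested genes of regulated secretion rose. The calcium sensors Syt4 and Syt1 were at 490.3, 517 and 546 against 1.93, 16.9 and 16.1 (log2 difference 5.75 with SE 0.72, BH-adjusted p = 0.00324 in limma) and at 1036, 1101 and 769 against 38.6, 31.7 and 25.6 (log2 difference 4.88 with SE 0.36, BH-adjusted p = 0.000238 in limma). The vesicle protein Sv2a was at 1285, 2198 and 2215 and 56.9, 140.3 and 171 (log2 difference 4.04 with SE 0.46, BH-adjusted p = 0.00232 in limma), and the SNARE protein Snap25 at 3699.9, 8035 and 6679 and 314, 374 and 494 (log2 difference 3.91 with SE 0.47, BH-adjusted p = 0.00283 in limma). For these 4 genes no Sox2-low value reached a Sox2-high one, and all held in every leave-out. Of 42 tested exocytosis genes 26 rose and none fell (30 and 3 with the block), with a median of 2.05; 9 rose without Sox2-high library 2, 13 without Sox2-low library 2, and 15 without Sox2-high library 3 or Sox2-low library 1 or 3. Rab27b, a small GTPase of secretory granules, lay the other way, at 1145, 2448 and 2546 in Sox2-high and 4562, 6358 and 5492 in Sox2-low libraries (BH-adjusted p = 0.0521 in limma, 0.00177 with the block).

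Some ion channels of excitable cells also rose. Kcnn3, a calcium-activated potassium channel, was at 778, 407 and 467 against 10.6, 29.7 and 25.6 (log2 difference 4.65 with SE 0.90, BH-adjusted p = 0.0175 in limma), and Kcnc1, a voltage-gated one, at 321, 484 and 372 against 6.75, 33.7 and 33.4 (log2 difference 4.21 with SE 0.70, BH-adjusted p = 0.00969 in limma). Kcnn3 lost its call without any 1 library other than Sox2-high library 1, and Kcnc1 without Sox2-high library 2 (highest adjusted p 0.0652 and 0.0508). Kcnj11, the pore of the potassium channel that responds to ATP, fell from 149.5, 277 and 153 to 6.57, 60.1 and 27.8 (log2 difference -2.97 with SE 0.75, BH-adjusted p = 0.0439 in limma) and kept its call in 1 leave-out, that of Sox2-high library 2 (highest adjusted p 0.156). Of 31 tested channel genes 12 rose and 1 fell (18 and 2 with the block), with a median of 1.68, and the rises numbered 1 without Sox2-high library 2, 4 or 5 without Sox2-high library 3 or a Sox2-low library, and 16 without Sox2-high library 1.

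Of 16 tested nutrient and irritant sensors 3 rose and none fell (4 and 5 with the block), with a median of -0.82. Ffar2, a receptor for short-chain fatty acids, was at 6505, 4202 and 2472 and 784, 556 and 495 (log2 difference 2.76 with SE 0.54, BH-adjusted p = 0.0184 in limma). The cation channels Trpm2 and Trpc4 rose by 5.42 (SE 1.39, adjusted p = 0.0458) and 4.67 (SE 0.81, adjusted p = 0.0115, limma BH). Trpa1, the irritant channel of intestinal enterochromaffin cells, was at 97.4, 616 and 757 in Sox2-high and 16.4, 96.4 and 85.9 in Sox2-low libraries, without overlap, and passed with the block but not without it (BH-adjusted p from limma = 0.0889 and 0.00675). None of these sensors passed without Sox2-high library 2 or Sox2-low library 2, 1 rose without Sox2-low library 3 and 2 without Sox2-low library 1. Without Sox2-high library 3, 2 rose and 2 fell.

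Among 25 tested receptors for peptides and amines, 4 rose and none fell (9 and 1 with the block), with a median of 0.41. The galanin receptor Galr1 was at 1646, 3055 and 2224 and 155, 264 and 429 (log2 difference 3.10 with SE 0.48, BH-adjusted p = 0.00695 in limma) and held in every leave-out. The somatostatin receptor Sstr1, the adrenergic receptor Adrb1 and the PACAP receptor Adcyap1r1 rose by 2.09 (SE 0.39, adjusted p = 0.0151), 3.73 (SE 0.87, adjusted p = 0.0327) and 2.95 (SE 0.54, adjusted p = 0.0138). Without Sox2-high library 2 or 3 or Sox2-low library 1, 1 of the list rose, and 2 rose without Sox2-low library 2 or 3; 1 fell without Sox2-high library 3. Of 22 neuronal adhesion and guidance genes 7 rose, led by the contactin Cntn4 at 47.1, 241 and 129.6 against 0, 3.37 and 0 (log2 difference 6.14 with SE 0.90, BH-adjusted p = 0.00544 in limma), and 1 fell, Dscam, which was at 0 in Sox2-high libraries and at 9.65, 14.8 and 16.1 in Sox2-low libraries (BH-adjusted p from limma = 0.0264, lost without any 1 library other than Sox2-high library 1). With the block 11 rose and 3 fell (median 1.52), and 3 rose without Sox2-high library 2 or 3 or Sox2-low library 1, and 4 without Sox2-low library 2.

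**Figure D3:**
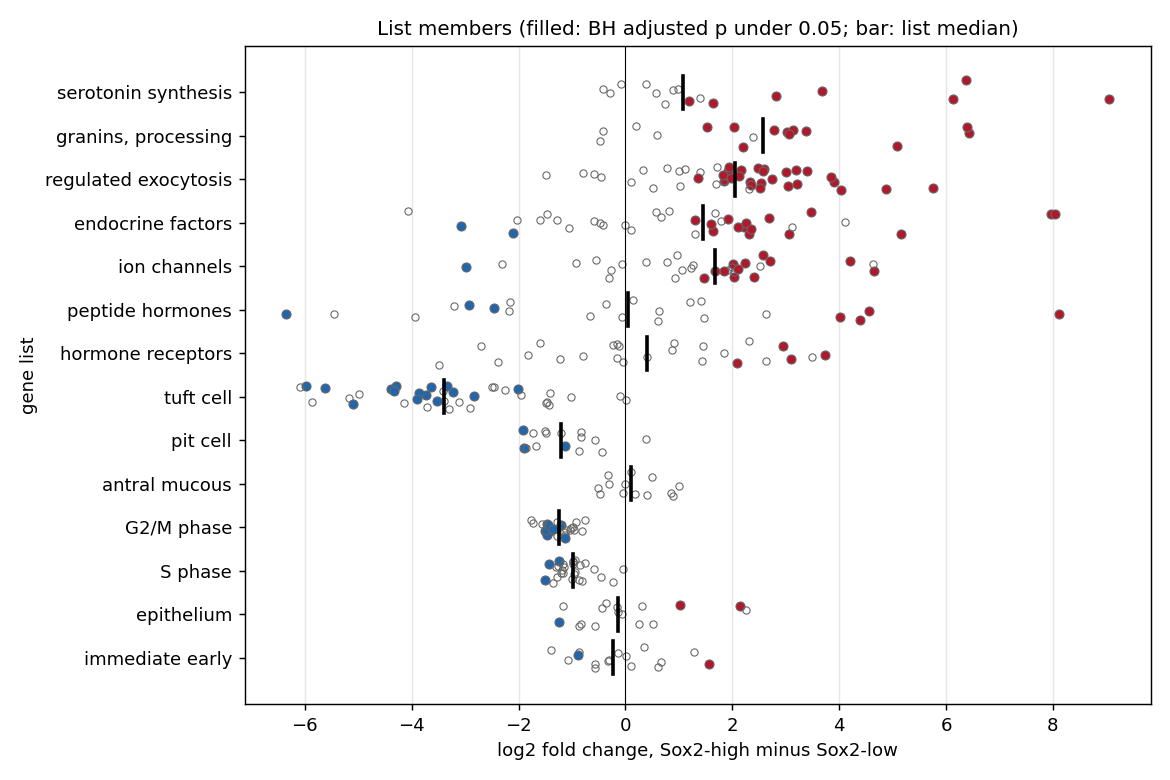
Log2 fold change (Sox2-high minus Sox2-low) of each tested member of 14 gene lists, 1 point per gene; filled points passed (red higher, blue lower), open points did not, and the bar is the list median. Exocytosis (median 2.05) and granule genes (2.58) lie mostly to the right, tuft cell genes (-3.40) almost wholly to the left.

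The 20 genes with the largest rise were taken among those with a mean of at least 500 normalized counts in the higher group and called with and without the block. All 20 held in every leave-out and were also higher than in Sox2-negative libraries. Since the same Sox2-high libraries picked these genes, neither result is separate support. At their head stood Prokr2, the receptor for prokineticins, at 249.5, 2169.5 and 2091 against 0, 0 and 3.58 (log2 difference 9.30 with SE 0.98, BH-adjusted p = 0.00164 in limma), and 0 in all 3 Sox2-negative libraries. The cadherin Cdh22 was at 817, 2915 and 3189 and 0, 13.5 and 4.17 (log2 difference 8.87 with SE 1.21, BH-adjusted p = 0.00457 in limma), and Anks1b, a scaffold protein of synapses, at 489, 916 and 829 and 0, 1.35 and 1.19 (log2 difference 8.70 with SE 0.63, BH-adjusted p = 0.000211 in limma). None of these 3 genes exceeded 13.8 in any library of the other gates. The secreted protein Nov (also called CCN3) was at 12239, 32757 and 31719 and 126, 270.4 and 200.3 (log2 difference 6.93 with SE 0.46, BH-adjusted p = 0.000169 in limma). Nptx2, a neuronal pentraxin, was at 7129.6, 18407 and 18574 against 76.2, 154 and 141, with the smallest values in each group on sort day 1. Caln1, a calcium-binding protein, rose by 7.59, the sialyltransferase St8sia5 by 7.27, the carbonic anhydrase Car4 by 7.36, the myelin protein Pmp22 by 7.36, the protease Prss12 (neurotrypsin) by 7.20, the proteoglycan Spock1 by 7.01 and the collagen Col8a1 by 6.76, with BH-adjusted p from limma from 0.000169 (Col8a1) to 0.00612 (Spock1). The rest of the 20 not yet named were Gm13373 (8.05), Prss28 (7.50), Jhy (7.49) and Sbpl (7.54), a gene with a close paralog, whose reads may have been shared.

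Altogether 202 genes rose by more than 4 log2 units and 27 fell by more than that. For 15 risen genes all 3 Sox2-low libraries were at 0, and for 18 fallen genes all 3 Sox2-high libraries were. Against a floor of 3 reads per library, the Sox2-high mean of the lipid-binding family member Bpifa6 was at least 134-fold higher, that of the homeobox gene Shox2 at least 117-fold higher and that of Fgf13 at least 51.6-fold higher; the first 2 were picked after their values were seen. Some secreted regulators also rose. Wif1, which binds Wnt ligands, was at 2989.7, 6329.8 and 4285 and 28, 43.8 and 60.2 (log2 difference 6.65 with SE 0.54, BH-adjusted p = 0.000336 in limma) and held in every leave-out, as did Pgf, a growth factor of the VEGF family (3.38, SE 0.40, adjusted p = 0.00246). The activin antagonist Fst rose by 4.74 (SE 0.87, adjusted p = 0.0142) and lost its call without Sox2-high library 3 or Sox2-low library 2 (highest adjusted p 0.0631, limma BH). Of 15 Wnt, BMP and activin genes 2 rose and none fell (5 and 2 with the block), with a median of 0.42 and 1 rise without Sox2-high library 3 or Sox2-low library 2. Of 18 growth factor genes 4 rose and 1 fell (7 and 1 with the block), with a median of 0.99; the fallen one, the EGF receptor ligand Btc, lost its call in every leave-out.

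Of the 925 genes that rose, 205 were also higher than in Sox2-negative libraries, a comparison in which 215 of all genes tested passed as higher (1.43%) and 109 as lower (0.724%). The comparisons share the Sox2-high libraries. For 842 of the 925 risen genes the Sox2-negative mean was also above the Sox2-low mean. Some risen genes overlapped with the Sox2-negative libraries. Neurod1 was at 3513, 1096 and 2716 in Sox2-negative libraries against 3267, 5133 and 4002 in Sox2-high ones, and Galr1 at 1399, 631 and 1677 against 1646, 3055 and 2224. For Tph1, Penk and Nkx6-1 the Sox2-negative values stayed in or near the Sox2-low range, as given above for Tph1 and Penk and at 32.6, 32.2 and 41.3 for Nkx6-1.

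Genes of tuft cells, chemosensory cells with a tuft of microvilli, were among the largest falls. Of the 20 genes with the largest fall under the same rule, 5 held in every leave-out, and 11 belonged to the tuft cell list. That list was chosen with earlier results of these data known, so the overlap is no separate support. Of the 265 falls over all genes tested, 15 were in the list, which has 37 tested genes. Over all genes tested 1.76% fell. The kinase Dclk1 was at 88.6, 14.3 and 882 in Sox2-high, 1879.9, 3320.5 and 7825 in Sox2-low and 2623, 5989 and 8875 in Sox2-negative libraries (log2 difference -5.10 with SE 1.25, BH-adjusted p = 0.0394 in limma). Plcb2, the phospholipase of taste signalling, was at 13.1, 3.41 and 22.8 and 229, 159 and 377 (log2 difference -4.40 with SE 0.62, BH-adjusted p = 0.00498 in limma) and held in every leave-out. The transcription factor Spib was at 115, 11.6 and 247 and 1417, 1186 and 1649 (log2 difference -4.30 with SE 0.89, BH-adjusted p = 0.0226 in limma), and Gfi1b, another factor of tuft cells, at 0, 0 and 24.7 and 228, 106 and 264 (log2 difference -5.98 with SE 1.14, BH-adjusted p = 0.0167 in limma). In each of these genes the groups did not overlap, and the highest Sox2-high value was that of sort day 3. The lineage factor Pou2f3 was at 0, 36.9 and 218 and 516, 563 and 1327, and the channel Trpm5 at 386, 47.8 and 1114 and 1703, 2897 and 5257; both passed with the block but not without it (BH-adjusted p from limma = 0.0813 and 0.0697 without it, 0.0128 and 0.0179 with it).

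Of 37 tested tuft cell genes 15 fell and none rose, and 31 fell with the block, with a median of -3.40. The falls numbered 1 or 2 without any 1 Sox2-low library, 7 without Sox2-high library 2 and 18 without Sox2-high library 1 or 3. Over all genes tested, falls numbered 27 to 38 without 1 Sox2-low library and 46 without Sox2-high library 2. They numbered 426 without Sox2-high library 1 and 109 without Sox2-high library 3. Dclk1 lost its call without any 1 library other than Sox2-high library 3, Spib without any 1 Sox2-low library, and Gfi1b without Sox2-high library 2 or Sox2-low library 1 or 3 (highest adjusted p 0.133, 0.0794 and 0.067). The list's summed level was 7985 to 17923 in Sox2-high, 43016 to 79533 in Sox2-low and 51144 to 93357 in Sox2-negative libraries. Other list members that fell are signalling genes known mainly from blood cells, among them Vav1 (-3.90), Fyb (-3.35) and Pik3r5 (-3.53). Of 9 tested immune markers none passed (2 fell with the block, and 1 fell without Sox2-high library 3), with summed levels of 521 to 563 in Sox2-high and 706 to 882 in Sox2-low libraries, and Cd3e and Itgax were at 0 in all 6 libraries. The pan-leukocyte marker Ptprc was at 0, 0 and 30.9 and 32.8, 82.3 and 206 (BH-adjusted p = 0.0539 in limma, 0.00721 with the block). The part of immune cells in these falls was not tested.

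**Figure D4:**
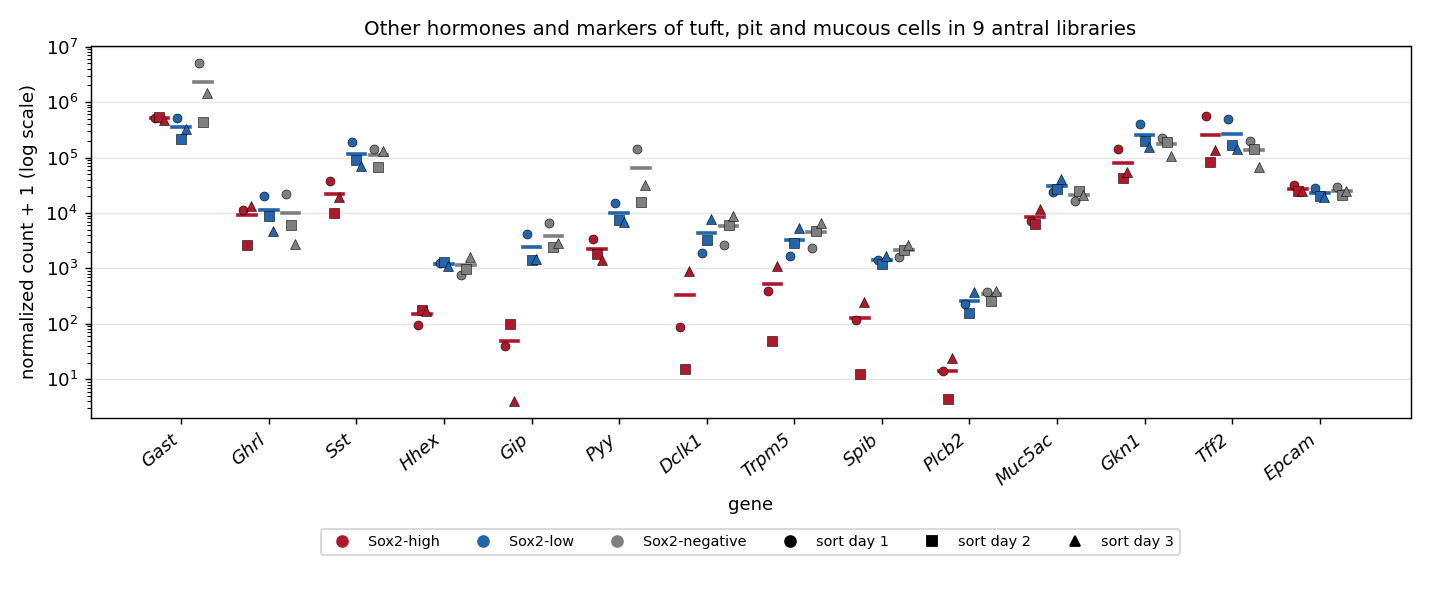
Normalized count plus 1 (log axis) of hormone genes and of tuft, pit and mucous cell markers in each library, with symbols for the sort day and bars for the mean of 3 libraries. Sst, Hhex, Gip and the tuft genes Dclk1, Trpm5, Spib and Plcb2 are lower in all 3 Sox2-high libraries than in any Sox2-low library, while Ghrl, Tff2 and Epcam overlap.

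Surface mucous (pit) cell genes were lower in part. The mucin Muc5ac was at 7304, 6222 and 11692 and 23847, 27236 and 41669.8 (log2 difference -1.89 with SE 0.34, BH-adjusted p = 0.0129 in limma), and Gkn1, a secreted gastrokine, at 141955, 43058 and 54858 and 402406, 198239 and 154647 (BH-adjusted p = 0.085 in limma, 0.00313 with the block). Neither gene's groups overlapped. Of 15 pit cell genes 3 fell, Muc5ac, Dpcr1 and Foxq1, and 11 fell with the block, with a median of -1.21; the count was 7 without Sox2-high library 1, 2 without Sox2-low library 1, 1 without Sox2-high library 2 or 3 or Sox2-low library 2, and 0 without Sox2-low library 3. The antral gland mucous list showed no such fall: none of its 13 genes passed, and 1 rose with the block (median 0.10), with the trefoil peptide Tff2 at 549671, 81912 and 138063 and 496183, 168842 and 141737. None of 7 chief cell genes (1 rose with the block, median 0.31) and none of 9 parietal cell genes (2 fell with the block, median -0.33) passed.

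Genes of dividing cells were lower as well, most of them short of the threshold. The cyclin Ccnb2 was at 2055, 1108 and 964 and 4881, 3279.99 and 3116 (log2 difference -1.50 with SE 0.34, BH-adjusted p = 0.0316 in limma), and the mitotic activator Cdc20 at 2598, 2079 and 1579.5 and 6481, 4950.3 and 4919.8 (log2 difference -1.40 with SE 0.28, BH-adjusted p = 0.0209 in limma). The proliferation marker Mki67 was at 2041, 1127 and 937 and 2643, 2798 and 3136 (BH-adjusted p = 0.0732 in limma, 0.0187 with the block). For all 3 genes every Sox2-high value lay below every Sox2-low value. Of 26 genes of the G2 and M phases 9 fell (24 with the block), with a median of -1.24, and of 27 S phase genes 3 fell (18 with the block), with a median of -0.99. Without Sox2-high library 1 these counts were 11 and 7, and without any other 1 library both were 0. Of 13 cell cycle exit genes none passed (6 rose and 2 fell with the block, and 1 fell without Sox2-high library 1), with a median of 0.17.

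Of 19 genes proposed to mark stem or isthmus cells, Hopx rose and Myc and Runx1 fell (2 and 8 with the block), with a median of -0.12, and Lgr5 was at 396, 807 and 951 and 229, 508 and 379, with overlapping groups (BH-adjusted p = 0.331 in limma, 0.0358 with the block). Hopx lost its call in every leave-out, and the 2 falls were 3 without Sox2-high library 1, 1 without Sox2-high library 3 and 0 otherwise. Among 9 SOX genes, Sox5 and Sox12 rose (4 rose and 2 fell with the block, median 0.57); neither passed without Sox2-high library 2 or Sox2-low library 2 or 3, and 1 did without Sox2-high library 3 or Sox2-low library 1. Among 20 gastric identity factors, Foxa2 rose and Klf4 fell (3 and 5 with the block, median -0.37). Foxa2 lost its call without Sox2-high library 2 or Sox2-low library 2 or 3, and Klf4 without any 1 library other than Sox2-high library 1; without that one, 2 fell. Of 20 Notch pathway genes 3 rose, Hes5, Dtx1 and Mfng (6 rose and 5 fell with the block, median -0.48), 2 of them without Sox2-high library 1 (where 1 other gene fell), 1 without Sox2-high library 3 and none without any other. The Notch target Hes1 was at 1916, 981 and 1347 and 2606, 2006 and 1995 (BH-adjusted p = 0.197 in limma, 0.0274 with the block). None of 14 antigen presentation genes passed, and 8 rose with the block (median 0.72) and 2 without Sox2-high library 1.

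Markers of other tissues were mixed. Of 7 endothelial genes Vwf and Esam rose and Tek fell (3 and 2 with the block, median 0.52), with summed levels of 1541 to 2114 in Sox2-high and 844 to 977 in Sox2-low libraries, and the defining marker Pecam1 at 254, 548 and 532 and 139, 231 and 329 (BH-adjusted p = 0.313 in limma, 0.0369 with the block). The 2 rises were 1 without Sox2-low library 3 and 0 without Sox2-high library 2 or 3 or Sox2-low library 1 or 2, and Tek kept its call without Sox2-high library 1 or 3 alone. Of 4 tested fibroblast and muscle genes 1 rose, the collagen Col1a2, from 0, 2.02 and 0 to 173, 358 and 246 (log2 difference 7.43 with SE 1.04, BH-adjusted p = 0.00498 in limma), while Col1a1, Pdgfra, Acta2 and Myh11 were too low to be tested (summed levels 2123 to 8195 and 1999 to 5976; 2 rose and 1 fell with the block, median 1.36). Col1a2 held in every leave-out. Of 10 enteric neuron and glia genes 4 rose and none fell (4 and 1 with the block, median 1.42), Snap25, Uchl1, Elavl4 and Tubb3, which endocrine cells also express; Phox2a was at 0 in all 6 libraries and Sox10 was too low to be tested. That count was 2 without Sox2-high library 2 or Sox2-low library 2. The part of these cell types in the results was not tested. The 1 tested red cell gene did not pass. Of 16 epithelial genes Cldn3 and Krt7 rose and Krt8 fell (3 and 6 with the block, median -0.15), and of 16 immediate early genes Dusp1 rose and Klf6 fell (3 and 4 with the block, median -0.22). Without Sox2-high library 2 or 3 or any Sox2-low library, none of these 5 genes passed, and without Sox2-high library 1 the epithelial list had 1 rise and 3 falls.

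The authors' deposited table of the same comparison holds 823 named genes with their adjusted p under 0.05 (4.75% of 17336), 614 higher and 209 lower. It was made from the same libraries and is no independent evidence. Of the 823, 648 were also called here, which is 78.7% of their list and 54.5% of the 1190, and all 648 had the same direction. In the authors' deposited table Trpa1, which passed here with the block but not without it, has a log2 difference of 2.87 (their adjusted p = 0.00520). Other genes were called here but not there. Among them were Sst and Muc5ac, lower in both, and Cpe and Foxa2, higher in both (their adjusted p = 0.164, 0.273, 0.167 and 0.404).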

How the data were processed

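RNA from sorted antral cells of 9 libraries was sequenced from low-input SMARTer cDNA, per the labels' protocols. Build mm9 and the tools edgeR, DESeq2, HTSeq and STAR are listed in the submitters' processing notes, without role or version. No source used here says whether counting used strand, so reads of a gene and of an overlapping or antisense partner cannot be separated. The authors deposited the antral table as a normalized signal, gene read counts divided by a factor per library. Division by what 1 read is worth gave whole reads for 100% of values (tolerance 0.01 read). Per the file headers, the authors' deposited comparison table holds a log2 fold change and an adjusted p-value per gene; its fold change column, a score in no usual unit as the authors deposited it, was not used. A deposited sort sheet gives other values, the sorted cell numbers. Of 26400 features, 433 without a name (0.0877 to 0.482% of a library's reads) and 25 with a calendar date as name (0.0601 to 0.106%) were left out.

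limma 3.58.1 (trend and robust, R 4.3.3) was fitted to log2(normalized count + 1) of all 9 libraries, so that the groups share 1 estimate of the spread, for genes with at least 10 in at least 3 libraries. BH adjustment ran over all genes tested, with a threshold of 0.05. The log scale understates the changes of low genes. Libraries of the same number were sorted on the same day, per the labels and the sort sheet. On that ground they were paired in the fit with the block, while the main test has no term for the sort day. Their deviations from the group means correlated at 0.582, 0.317 and 0.431 (sort days 1, 2 and 3). Across days, Sox2-high library 2 correlated at 0.365 with Sox2-low library 3, and Sox2-high library 3 at 0.280 with Sox2-low library 2. The correlations thus set sort day 1 apart but do not separate days 2 and 3. Nothing in the sources used here says that sort days used separate animals, and the p-values speak only of how these sorts varied. No replicate pair agreed within counting noise: chi-square divided by its degrees of freedom was at least 31.2. Alternatives were the sort day as a block, other pseudocounts (0.5 and 5), no filter or one at 50, TMM factors, edgeR 4.0.16 (1001 genes called on the recovered reads) and DESeq2 1.42.0 on recovered reads, the 6 libraries alone, and each library left out.

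The gene members and the 32 lists (714 genes, 659 in the table) were chosen with earlier results of these data known, and the lists are described by counts and medians without a set test. Some list members are counted but not reported here by name. Genes were taken by rule: the 20 largest rises and 20 largest falls called with and without the block, in the same direction on 3 of 3 days, with a mean of at least 500 in the higher group, and list members, with Sox2, Tph1, Chgb, Penk and Epcam. Not all of the 20 largest falls are named here. List members are named whether or not they meet that rule, as with Plcb2 and Gfi1b, which were under 500 in every Sox2-low library. The main test was tested on simulated counts with known changes. It recovered 0 of 51 genes changed by 1 log2 unit, 30 of 55 changed by 2, 38 of 42 changed by 4 and 50 of 51 changed by 6. There were 5 false calls. The simulated counts had no shared sort-day shift, and genes of low mean were not changed, so these rates may differ in the real libraries. A gene that did not pass may therefore still have changed by 1 or 2 log2 units. Bounds for genes at 0 use 3 reads per library, which reflects counting error alone, since reads carry no molecular identifiers. RefSeq promoter windows (GRCm38.p6) gave the sequences.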

Additional observations from a re-analysis of the deposited data

How the results depend on the processing

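The number of genes called, 1190, became 4581 with the replicate block, 4301 with the block in edgeR, 2443 by DESeq2 (1543 higher, 900 lower) and 4884 with the block in the 6 libraries alone. It ran from 310 to 1503 when single libraries were left out, and from 950 to 1265 under the other settings. The share of higher genes, 77.7%, was 56.9% with the block, 54.4% with the block in edgeR, 63.2% by DESeq2 and 75.5% with TMM factors. The cause of these shifts was not tested. Of 125 tested genes named here, 106 were called, 84 of these under every setting that gave a value and kept all Sox2-high and Sox2-low libraries, and 45 also whichever library was left out. Calls ended without the filter for Btc, Foxq1, Hdc, Hes5, Hopx, Kcnj11, Klf6, Myc, Pam, Runx1 and Trpm2, in edgeR for Dclk1, Dtx1, Fyb, Gfi1b, Hes5, Kcnj11, Pam, Pik3r5, Trpm2 and Vav1, and in the 6 libraries alone for Ccnb2, Dclk1, Fyb, Hdc, Hes5, Iapp, Kcnj11, Klf4, Klf6, Krt7, Pik3r5, Spib, Trpm2 and Vav1. Hes5 and Trpm2 also lost their calls with a pseudocount of 0.5, and Cntn4, Dscam, Dtx1 and Hes5 were too low to be tested with the filter at 50. With the block, 13 more named genes passed and no call ended. No named gene changed direction except, with a library left out, Ghrl (-0.85 to 0.38), Pcsk2 (-0.92 to 0.35) and Tff2 (-1.10 to 0.27), none of which passed. For the 15 risen genes at 0 in every Sox2-low library, the depth gives only a lower bound of the fold. The same limit holds for the 18 fallen genes at 0 in every Sox2-high library.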

Other observations

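In the authors' deposited table, the size of the fold change column equals the square of the log2 fold change in 24946 of 24946 rows, and it is positive in 8232 rows whose log2 fold change is negative. That column was not used.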
